A study of Xenopus laevis with 18 samples.

Results

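The transcripts described here were those that first reached 10 TPM (an abundance relative to all transcripts of a library, which are set to a total of 1000000) in the mid-neurula of Xenopus laevis, the African clawed frog. They were chosen from RNA sequencing of whole embryos of the J strain, an inbred line, with a single library at each of 18 developmental stages. Stages are numbered after Nieuwkoop and Faber (NF). Members had a mean under 1 TPM over the 5 libraries from stage 0 to stage 7, before the midblastula, and a mean of at least 10 TPM over the 4 tailbud libraries from stage 23 to stage 33. Their first library at 10 TPM or more was stage 16 or 18. Of 30993 Xenopus rows in the deposited table, 1761 were under 1 TPM early and at 10 TPM or more late, and 171 of these first reached 10 TPM at stage 16 (45 rows) or stage 18 (126 rows). All embryos were raised in one medium with gentamycin and snap frozen at their stage, with no other treatment named. The labels do not say how many embryos went into a library.

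In a frog embryo the zygotic genome is silent through the early cleavages and the egg's own RNA is used. Bulk transcription starts at the midblastula transition, and genes of the germ layers come on through gastrulation. Stages 16 and 18 fall in the neurula, when the neural folds rise and close over the back of the embryo and cells of skin, muscle and nervous system begin to take on their type. In whole embryos, more cells of a type and more RNA per cell cannot be told apart. None of the row names matched a gene in the RefSeq gene table (0 matches), so the rows carry no gene names or roles, and the description rests on their time courses. Xenopus laevis also holds many near-identical gene pairs from an ancient genome doubling, and no label says how reads of such pairs were shared between rows.

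The values of the rule itself are given as a description, without a test. The pre-midblastula mean of a member reached at most 0.962 TPM, and the nearest row kept out by this limit had 1.01 TPM. The lowest tailbud mean inside was 10.1 TPM and the highest outside was 9.99 TPM. At stage 14 the highest member stood at 9.93 TPM, while the lowest of the 294 rows that first reached 10 TPM at stage 14 stood at 10.0098 TPM. At stage 18 the lowest row with its onset there had 10.01 TPM, and the highest of the 228 rows with an onset at stage 20 had 9.95 TPM. Many rows lay close to these limits. Of the members, 41 were already at 8 TPM or more at stage 14, and of the 126 rows with an onset at stage 18, 40 were under 12 TPM there. The edges of the group thus run through rows of similar values.

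Most members had begun to accumulate before the stage at which they reached 10 TPM. In the 5 pre-midblastula libraries 89 of 171 members were listed at 0 throughout, and the members together held 0.00192% to 0.00267% of the Xenopus total in each. The median member was listed at 0 up to stage 9 and stood at 0.134 TPM at stage 10, 0.705 TPM at stage 12 and 6.34 TPM at stage 14. By stage 10, 35 members had reached 1 TPM in some library, 79 had by stage 12 and 162 by stage 14. At these stages themselves 21, 69 and 160 members were at 1 TPM or more. Some of the 35 had thus done so only in an earlier library. The step from stage 12 to stage 14 had the largest median change on the log2(TPM + 1) scale, at 1.59. An increase of at least 1 on this scale, between single libraries, held for 125 members. It also held for 259 of 294 rows with an onset at stage 14 and 135 of 228 at stage 20. The share over all rows was not computed and the rule keeps members low early, so this count is only a description. The step from stage 12 to stage 14 was also the largest by median for rows with an onset at stage 14, at 2.27, and at stage 20, at 1.19. From stages 14 to 16 the median change was 0.30, from stage 16 to stage 18 it was 0.87, and from stage 18 to stage 20 it was 0.62. The rule sets at which of stages 16 and 18 a row crosses 10 TPM, so the steps up to stage 18 are in part fixed by it. From stage 16 to stage 18 the median change was 1.18 for rows with an onset at stage 18 and 0.13 for those with an onset at stage 16. As deposited, the columns of stages 14 and 16 summed to 1000000 and those of stages 18 and 20 to more. Between stages 16 and 18, stage and this kind of column therefore cannot be told apart. At stage 14 itself 11 members were under 1 TPM, of which 7 were listed at 0 in every library to that stage. For the typical member, 10 TPM at stage 16 or 18 was therefore a point on an increase already visible at stages 12 and 14.

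**Figure D1:**
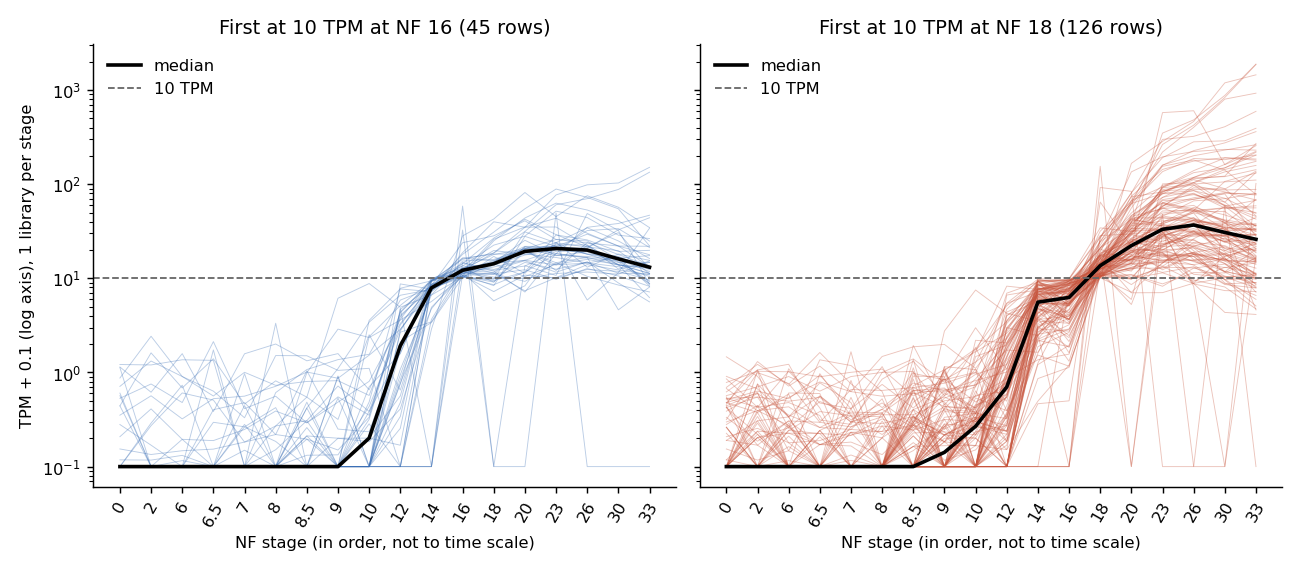
Level of each member (thin lines) and the median (black) by NF stage, as TPM + 0.1 on a log axis with 1 library per stage, for the 45 rows that first reached 10 TPM at stage 16 and the 126 that did so at stage 18. Median levels climbed from 0.705 TPM at stage 12 to 6.34 TPM at stage 14 over all members, before the 10 TPM line was crossed, and single rows reached 1890 TPM at stage 33.

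Stage 20 is the one library that no part of the rule uses. It lies between an onset at 10 TPM and a tailbud mean of at least 10 TPM, both set by the rule. A high share at stage 20 is therefore in part fixed by the choice of rows and is given as a description. At stage 20, 155 of 171 members, or 90.6%, stood at 10 TPM or more, beside 99.0% of the rows with an onset at stage 14. Among rows with an onset at stage 18 this held for 116 of 126, and among those with an onset at stage 16 for 39 of 45. For the latter, stage 18 is also outside the rule, and 34 of 45 were at 10 TPM or more there. In every library from stage 20 to stage 33, 122 members were at 10 TPM or more. After their onset 6 members were listed at 0 in at least 1 later library. One of these read 155 TPM at stage 18, 0 at stage 20, 47.8 TPM at stage 23, 0 at stages 26 and 30, and 102 TPM at stage 33. Another read 58.5 TPM at stage 16, 0 at stages 18 and 20, 49.4 TPM at stage 23 and 0 in the 3 later libraries. Whether a listed 0 in such rows is a failed estimate or a true absence was not tested. None of these 6 rows passed the trend test given further on.

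Rows that crossed 10 TPM at stage 16 and at stage 18 are given side by side as a description. The median of the rows with an onset at stage 16 was 12.1 TPM at stage 16, 14.2 TPM at stage 18, 19.3 TPM at stage 20 and 20.7 TPM at stage 23, and then 19.9, 16.0 and 13.0 TPM at stages 26, 30 and 33. The median of the rows with an onset at stage 18 was 13.5 TPM at stage 18, 22.2 TPM at stage 20, 33.1 TPM at stage 23 and 36.8 TPM at stage 26, and then 30.7 and 25.9 TPM at stages 30 and 33. These medians were highest at stages 23 and 26 and lower again at stage 33. Median tailbud means were 17.7 and 32.0 TPM. Over all members the tailbud mean ranged from 10.1 to 900.1 TPM with a median of 25.7 TPM, and 66 members lay under 20 TPM, 81 between 20 and 100 TPM, and 24 at 100 TPM or more.

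The highest value fell at stage 26 in 55 members, at stage 23 in 40, at stage 33 in 36, at stage 20 in 21 and at stage 30 in 15. The remaining 4 members were highest at stage 16 or 18. At 50% of their own maximum, members spread over a wider span. By stage 18, 66 had reached it, 43 did so first at stage 20, and 62 at stage 23 or later. Of the rows with an onset at stage 14, 26.5% were highest at stage 26 and 12.6% at stage 33, and of those with an onset at stage 20, 43.0% and 24.1%, beside 32.2% and 21.1% of the members. These shares were not tested against each other.

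**Figure D2:**
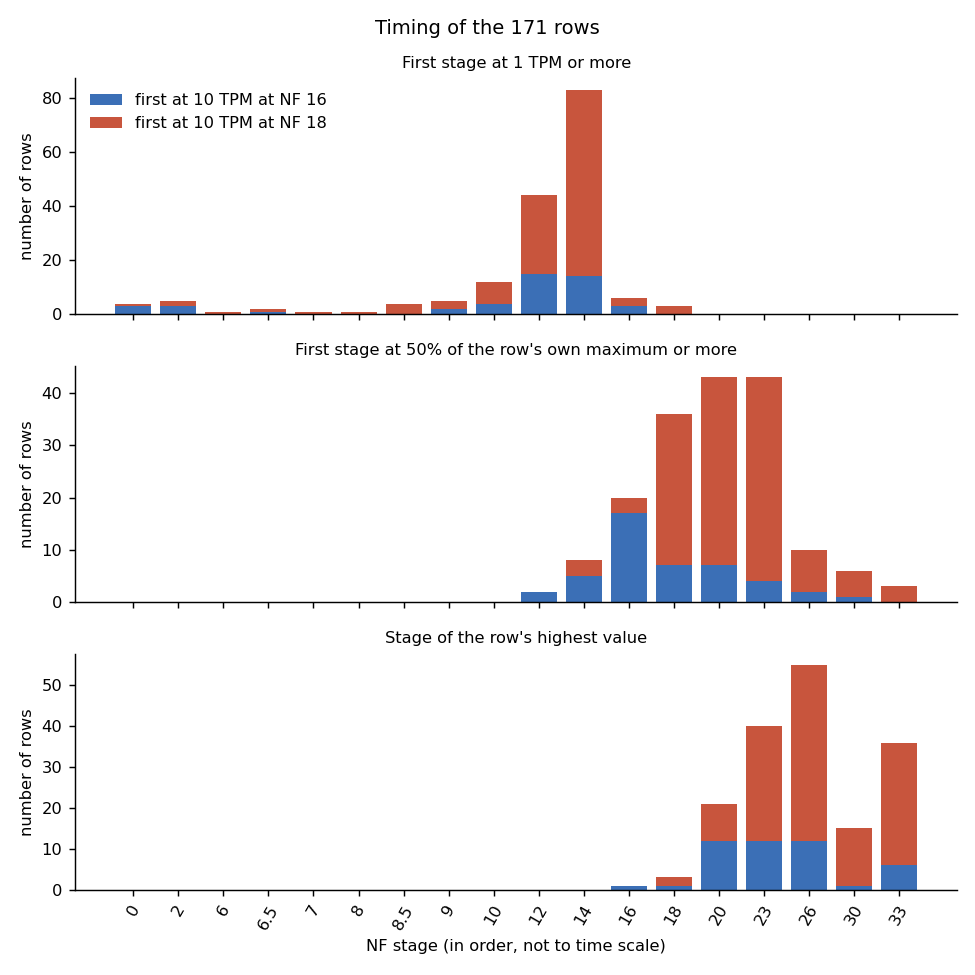
Number of the 171 members by the first stage at 1 TPM or more (top), the first stage at 50% of the row's own maximum (middle) and the stage of its highest value (bottom), coloured by the stage at which the row first reached 10 TPM. Most rows first reached 1 TPM at stage 12 (44) or stage 14 (83), and the highest values lay mainly at stages 23, 26 and 33.

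A small number of rows came to carry most of this RNA. Members together held 0.282% of the Xenopus total at stage 18, 0.471% at stage 20, 0.860% at stage 23, 1.02% at stage 26, 1.14% at stage 30 and 1.43% at stage 33. The 15 members at 200 TPM or more at stage 33, a level chosen after the values were seen, held 12.7% of the members' sum at stage 18, 37.2% at stage 23 and 65.4% at stage 33. All 15 had their onset at stage 18. Their levels ran from 12.7 to 64.6 TPM at stage 18, from 78.6 to 577 TPM at stage 23 and from 203.5 to 1890 TPM at stage 33, and 12 of the 15 were higher at each successive stage from stage 18 to stage 33. The other 156 members held 0.371% of the total at stage 20, 0.588% at stage 26 and 0.496% at stage 33 and the 15 held 0.0997%, 0.430% and 0.937%. Because the 15 were picked by their stage 33 level, a higher share of theirs and a lower share of the others at that stage are in part fixed by the choice.

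**Figure D3:**
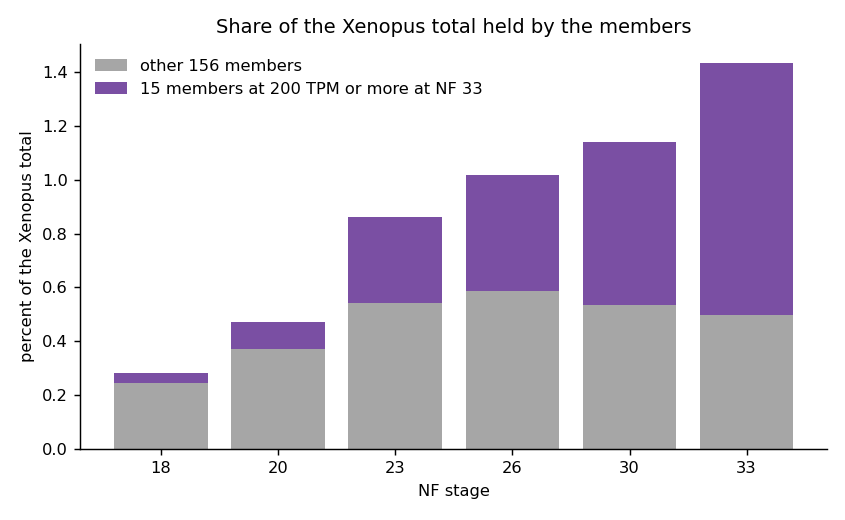
Percent of the Xenopus total held by the members at each stage from stage 18 to stage 33, with 1 library per stage, split into the 15 members at 200 TPM or more at stage 33 (purple) and the other 156 (grey). The purple part grew from 0.0358% at stage 18 to 0.937% at stage 33, and the grey part was highest, at 0.588%, at stage 26.

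Which way a member went after its onset was tested as a straight line over the order of 5 stages, from stage 20 to stage 33 on log2(TPM + 1). The rule uses neither stage 20 nor the order of the tailbud stages, but it does use the tailbud mean. It left out 125 rows with the same early limit and onset whose tailbud mean was under 10 TPM. The shares of rising and falling members are therefore in part shaped by the rule. The line was fitted with limma to all 22393 rows whose mean over these libraries reached 1 TPM, with Benjamini-Hochberg adjustment over all of them. Of 171 members, all of which passed that filter, 31 rose and 17 fell (limma, adjusted p under 0.05). Over all rows tested, 12.8% rose and 13.1% fell, beside 18.1% and 9.94% of the members. Of the 1761 rows under 1 TPM early and at 10 TPM or more late, which include the members, 27.0% rose and 21.3% fell. At an unadjusted p under 0.05, 37 members (21.6%) had a rising and 30 (17.5%) a falling slope. At this level the members lay close to the 19.9% and 21.0% of all rows tested. They lay below the 32.5% and 28.1% of those 1761 rows. The closeness depends on the filter. With a mean of at least 5 TPM required, 22.8% of members rose and 19.3% fell at this level, against 17.8% and 26.8% of 15775 rows. In TPM over these 5 libraries the median slope was 0.0038 log2 units per stage step among members and -0.0079 among all rows tested, and 86 members had a slope above 0 and 85 below. Between the single libraries of stages 20 and 33, 44 members were at least 2-fold higher and 25 at least 2-fold lower at stage 33, against 19.5% and 13.8% of all rows tested. These folds were taken on TPM + 1, so some rows just past 2-fold in TPM are not counted. Each stage has 1 library, so this spread is that of single stages around a line, real bends included.

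These counts moved with single libraries and with the kind of column. Without stage 33 only 5 members rose and 0 fell (limma, adjusted p under 0.05), against 0.295% of all rows in each direction. At an unadjusted p under 0.05, 41 (24.0%) rose and 12 (7.02%) fell there, against 16.7% and 11.7% of all rows. Without stage 20 the adjusted counts were 15 and 13, against 3.65% and 3.39% of all rows. They were 27 and 6 without stage 23, against 7.48% and 6.72% of all rows, and 22 and 7 without stage 30, against 5.55% and 6.27%. Without stage 26 they were 28 and 15, against 11.6% and 12.3% of all rows. The columns of stages 20 and 23 summed to over 1000000 as deposited and the later 3 did not, and with a term for this kind of column limma called 0 rows in the whole table, while at an unadjusted p under 0.05 22 members (12.9%) had a rising and 26 (15.2%) a falling slope, against 7.00% and 14.9% of all rows. Within the 3 libraries from stage 26 to stage 33, all of 1 kind, limma called 0 too. There 22 (12.9%) rose and 58 (33.9%) fell at an unadjusted p under 0.05, against 8.22% and 18.4% of all rows. Of the 1761 rows under 1 TPM early and at 10 TPM or more late, 17.5% rose and 36.5% fell at this level. Their shares were 16.4% and 25.3% with the term for the kind of column, and 32.5% and 17.9% without stage 33. After adjustment, leaving out 1 library gave 2.21% to 24.1% of them rising and 2.16% to 20.6% falling.

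**Figure D4:**
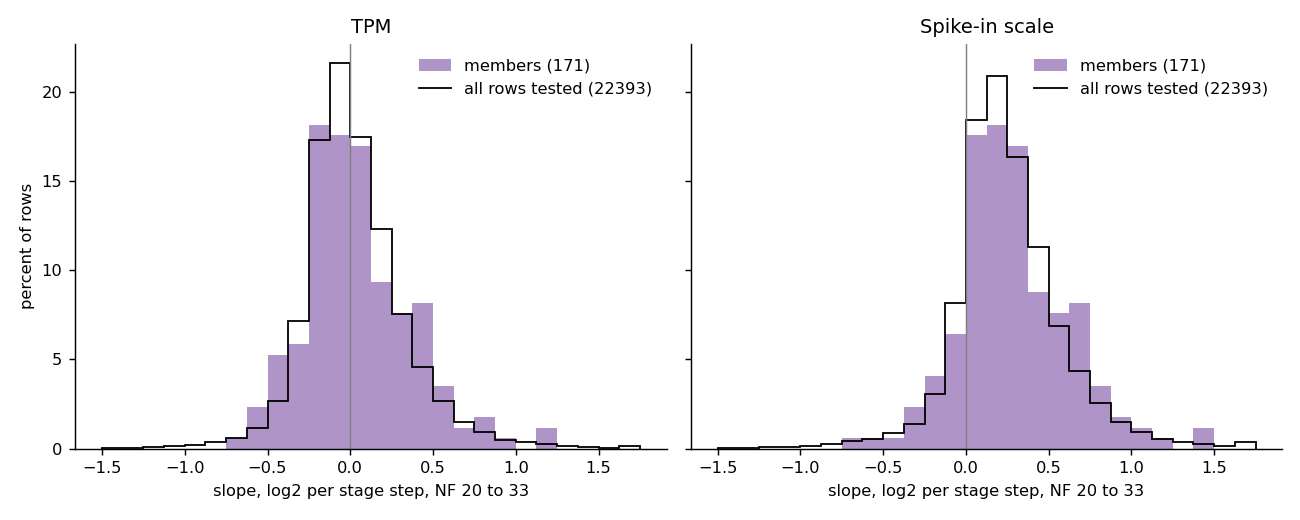
Distribution of the slope over stages 20 to 33, in log2 units per stage step, for the 171 members (purple) and all 22393 rows tested (black line), in TPM (left) and after scaling to the summed spike-ins (right), as percent of rows with the outermost bins holding all values beyond them. Members lay around the same centre as all rows, with medians of 0.0038 and -0.0079 in TPM and of 0.25 and 0.22 on the spike-in scale.

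The direction also depended on the yardstick. The table also holds rows of ERCC spike-ins, which are artificial RNAs of known sequence. The labels do not give the spike-in amount per embryo or per sample, so this scale is relative to the spike-ins and not a measure of RNA per embryo. The Xenopus total per spike-in total was 2.01 times as high at stage 33 as at stage 20. On the spike-in scale the median slope of all rows was 0.22 log2 units per step, and that of the members was 0.25, with 146 of 171 members above 0. There 64 members rose and 2 fell (limma, adjusted p under 0.05), or 37.4% and 1.17%. This lay close to the 36.0% and 2.12% of all rows tested. Of the 1761 rows under 1 TPM early and at 10 TPM or more late, 43.4% rose and 7.10% fell. This scale multiplies all rows of a library by 1 factor, and that factor is higher at the later stages. All 31 members that rose in TPM also rose per spike-in, a direction that the scaling fixes and that is no separate support. Of the 17 that fell in TPM, 2 fell per spike-in, 0 rose, and 2 had a slope above 0.

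By their medians the rising members were more abundant than the others. The 31 risers had a median tailbud mean of 124 TPM, beside 23.8 TPM for members that passed in neither direction, with a range of 13.4 to 900.1 TPM, and 27 of them had their onset at stage 18. Their median level was 36.6 TPM at stage 20, 82.0 TPM at stage 23, 114 TPM at stage 26, 135 TPM at stage 30 and 175 TPM at stage 33, and their summed share of the Xenopus total went from 0.141% at stage 20 to 1.09% at stage 33. They included 13 of the 15 members at 200 TPM or more at stage 33. The tailbud mean and the stage 33 level come from libraries of the test itself, so high values of both among risers are in part fixed by the call. Slopes of risers ran from 0.26 to 1.24 log2 units per stage step.

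The steepest rise belonged to XeXenL6RMv10017046m. This row was listed at 0 in every library to stage 8 and stood at 1.84 TPM at stage 8.5, 0.351 TPM at stage 9, 0.991 TPM at stage 10, 0.223 TPM at stage 12, 3.67 TPM at stage 14 and 1.22 TPM at stage 16. It then read 13.6 TPM at stage 18, 39.2 TPM at stage 20, 349 TPM at stage 23, 483 TPM at stage 26, 878 TPM at stage 30 and 1890 TPM at stage 33, higher at each stage than at the one before. Its slope was 1.24 log2 units per step ± 0.173 (SE, limma adjusted p = 0.00551).

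The next was XeXenL6RMv10032820m, whose values lay close to those of the first from stage 26 on. It read 8.64 TPM at stage 14, 7.18 TPM at stage 16, 27.7 TPM at stage 18, 62.4 TPM at stage 20, 264 TPM at stage 23, 424 TPM at stage 26, 836 TPM at stage 30 and 1873 TPM at stage 33, after values of at most 0.907 TPM in all libraries to stage 12. Its slope was 1.14 ± 0.0898 (SE, limma adjusted p = 0.00153). In both rows the value at stage 33 was over 2 times that at stage 30.

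The falling members had a median of 24.0 TPM at stage 20, above the 18.9 TPM of members that passed in neither direction, and were low by stage 33. The 17 had tailbud means of 10.2 to 27.2 TPM with a median of 15.6 TPM, 8 had their onset at stage 16 and 9 at stage 18, and 10 were highest before stage 23. From 24.0 TPM at stage 20 their median went to 20.7 TPM at stage 23, 17.9 TPM at stage 26, 11.7 TPM at stage 30 and 8.74 TPM at stage 33. By their median in TPM these rows were higher at stage 20 than in the tailbud libraries and back under 10 TPM by the last stage. All these levels come from libraries of the test itself. A high level at stage 20, a low one at stage 33 and an early highest value are therefore in part fixed by the call.

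Among the members that passed the test as falling, the steepest fall was that of XeXenL6RMv10041574m. It was listed at 0 in every library to stage 12 except stage 2, where it read 0.948 TPM, and then stood at 1.11 TPM at stage 14, 1.85 TPM at stage 16, 13.3 TPM at stage 18 and 42.8 TPM at stage 20, its highest value. From there it read 36.0 TPM at stage 23, 19.6 TPM at stage 26, 11.5 TPM at stage 30 and 8.16 TPM at stage 33, a slope of -0.61 log2 units per step ± 0.0606 (SE, limma adjusted p = 0.00247). On the spike-in scale its highest value was at stage 23, at 56.5 beside 48.8 at stage 20, and its slope was -0.38 (limma adjusted p = 0.0104).

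XeXenL6RMv10005646m came next and was highest a stage later. It read 3.95 TPM at stage 12, 5.68 TPM at stage 14, 7.73 TPM at stage 16, 14.4 TPM at stage 18, 24.5 TPM at stage 20, 29.0 TPM at stage 23, 17.9 TPM at stage 26, 9.65 TPM at stage 30 and 5.88 TPM at stage 33. Its slope was -0.53 ± 0.0913 (SE, limma adjusted p = 0.0102), and on the spike-in scale it was -0.30 and missed the threshold (limma adjusted p = 0.0636). Without stage 33 none of these 4 rows passed the threshold, with limma adjusted p from 0.0552 to 0.122, while each slope kept its sign. Over 16 alternatives the limma adjusted p reached at most 0.154 and 0.122 for the 2 rising rows and 0.136 and 0.213 for the 2 falling rows, and at least 0.000994, 0.00032, 0.00137 and 0.00289.

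**Figure D5:**
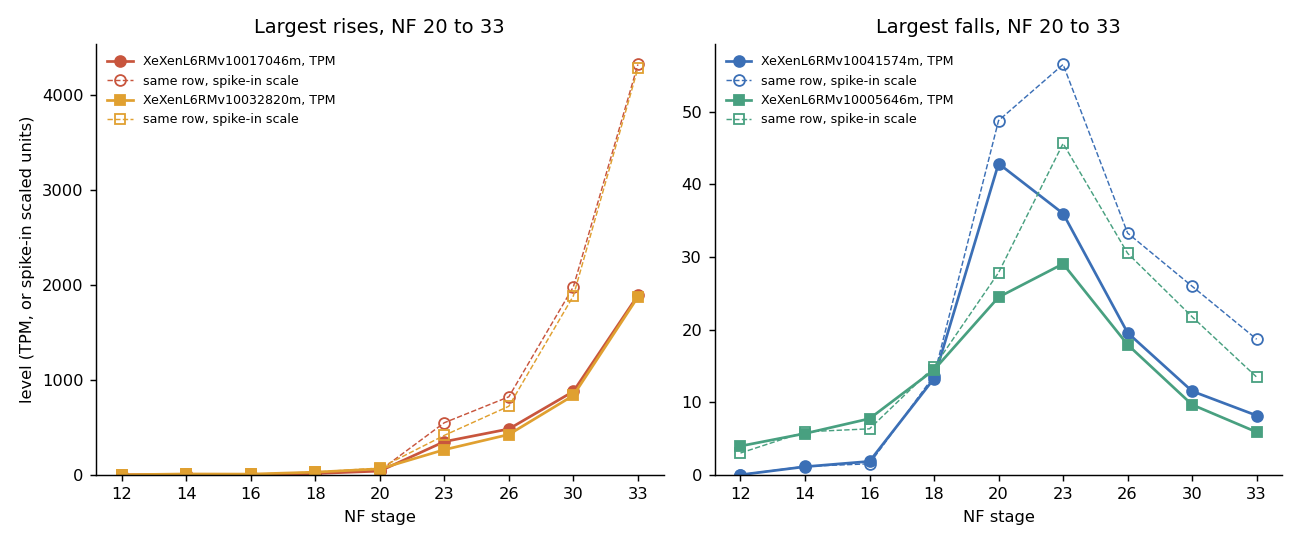
Levels of the 2 members with the steepest rise (left) and the 2 with the steepest fall (right) from stage 12 to stage 33, 1 library per stage, in TPM (filled) and scaled to spike-ins (open, in units in which the geometric mean of the 18 Xenopus totals is 1000000). The rising rows reached 1890 and 1873 TPM at stage 33, and the falling rows were highest in TPM at stages 20 and 23, at 42.8 and 29.0 TPM. On the spike-in scale both were highest at stage 23, at 56.5 and 45.6.

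The other 123 members passed in neither direction. Their median level was 18.9 TPM at stage 20, 24.3 TPM at stage 23, 29.1 TPM at stage 26, 22.0 TPM at stage 30 and 17.3 TPM at stage 33, and 88 of them were highest at stage 23 or 26. A line cannot describe such a course, so a quadratic term over the same 5 libraries was added after the values were seen. Of 171 members, 2 bent downwards and 0 upwards (limma, adjusted p under 0.05), against 0.138% and 0.0179% of all rows tested. At an unadjusted p under 0.05, 73 members bent downwards and 1 upwards, that is 42.7% and 0.585%, against 12.6% and 3.01% of all rows tested. Among rows that first reached 10 TPM at stage 14 and at stage 20, 36.7% and 50.4% bent downwards at this level, so bending downwards was also common at the neighbouring onset stages. It was common too among the 1761 rows under 1 TPM early and at 10 TPM or more late, at 39.6%. On the spike-in scale 12 members bent downwards and 0 upwards after adjustment, against 0.768% and 0.0581% of all rows. There 112 of those 1761 rows bent downwards. So did 15 of 294 rows with an onset at stage 14 and 19 of 228 at stage 20.

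Rows of the neighbouring onset stages are given beside the members as a description. In the test over stages 20 to 33, 12.6% of the rows with an onset at stage 14 rose and 29.9% fell, while 23.2% of those with an onset at stage 20 rose and 3.51% fell (limma, adjusted p under 0.05). Stage 20 itself was used to choose the latter rows. Over stages 23 to 33 alone, of which only the mean was used to choose these groups, 15 members rose and 13 fell, or 8.77% and 7.60%. This was above the 3.65% and 3.39% of all rows tested. It was below the 13.1% and 13.5% of the 1761 rows under 1 TPM early and at 10 TPM or more late. For the onset at stage 14 the shares were 3.74% and 17.3%, and for the onset at stage 20 they were 8.77% and 4.82%. Differences between these groups were not tested.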

How the data were processed

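Per the submitters' processing notes, CASAVA 1.8.2, Trimmomatic, Bowtie and RSEM were used, with no role or order given, and with transcript reference and genome build not given in the sources used here. Per the labels' protocols, RiboZero depletion of ribosomal RNA preceded ScriptSeq library construction. Of 18 deposited columns, 9 were TPM summing to 1000000. The other 9 deposited columns held a signal on the same scale that summed to 1.48% to 2.72% more, for a reason not given. The design had assumed TPM throughout. The 92 spike-in rows were left out and each library's Xenopus rows were rescaled to 1000000. Depth is unknown, so no counting interval is given.

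The members, lists and rules were chosen with earlier results of these data known. Trends were fitted in R 4.3.3 by limma 3.58.1, using lmFit and eBayes (intensity trend), on log2(TPM + 1) over rows whose mean reached 1 TPM, a scale that understates changes of low rows; the script was tested on simulated data. The 4 named rows are the 2 steepest rises and falls past the threshold with no 0 from stage 20 to stage 33. Gene lists by symbol could not be run, since no row name matched. Alternatives covered scaling, pseudocount, filter, stage axis, column kind, thresholds and leaving out single pre-midblastula, neurula and tailbud libraries.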

Additional observations from a re-analysis of the deposited data

Results flagged for a closer look

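Library values of the members and of the 4 named rows were examined for single libraries standing apart within windows of 4 or 5 libraries. In 30 such examinations 3 values did so. All 3 are rows read in a single pre-midblastula library and listed at 0 in the other 4. Such a row is always picked out, however low its value. The 1.5 that would be expected by chance is therefore no measure for them. XeXenL6RMv10032820m read 0.111 TPM at stage 6, XeXenL6RMv10041574m read 0.948 TPM at stage 2 and XeXenL6RMv10005646m read 0.138 TPM at stage 2.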

How the results depend on the processing

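The 31 rising and 17 falling members became 64 and 2 with spike-in scaling, 18 and 8 with no filter (6.06% and 6.14% of all rows), and 0 and 0 both with a term for the kind of column and within stages 26 to 33, an alternative added after seeing the data. These last fits have fewer residual degrees of freedom, but so do the fit with a quadratic term and those leaving out 1 library. Why they called 0 was not tested. With a quadratic term, also added later, 42 members rose and 35 fell, against 17.6% and 17.7% of all rows tested. Leaving out 1 of the 5 libraries gave 5 to 28 rising and 0 to 15 falling members. Of all rows tested, 0.295% to 11.6% rose and 0.295% to 12.3% fell in these fits. The 2 members bending downwards became 12 with spike-in scaling. The other alternatives stayed within 1.5 times. Membership follows its thresholds. The 171 members, the 155 at the onset threshold at stage 20 and the 36 highest at stage 33 became 272, 242 and 75 with median ratio scaling, 292, 263 and 55 at a threshold of 5 TPM and 94, 90 and 15 at 20 TPM. Leaving out single libraries gave 45 to 459 members, 39 to 441 at stage 20 and 6 to 73 highest at stage 33, where the extremes leave out stages 18 and 14 and follow from the rule. With spike-in scaling 66 were highest at stage 33. Of the 171 members, 160 were also among the 230 chosen on the spike-in scale, that is 93.6% of the first and 69.6% of the second. Fewer were shared in some other alternatives, with 103 (60.2% of the 171) under median ratio scaling, 61 (35.7%) at 5 TPM and 26 (15.2%) at 20 TPM. Without rescaling of the deposited columns 155 rows met the rule, of which 58 were among the 171. No named row changed sign. No paired analysis was possible because replicate numbers were given in accession order and each stage has 1 library.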

Other observations

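The most abundant late members were also read in the stage 8.5 library, well before their onset. Of the 15 members at 200 TPM or more at stage 33, 2 were above 0 at stage 7, 2 at stage 8, 13 at stage 8.5, 9 at stage 9 and 13 at stage 10. Their summed level was 0.936 TPM at stage 8, 9.27 TPM at stage 8.5, 4.11 TPM at stage 9 and 8.55 TPM at stage 10, and 13 of 15 were higher at stage 8.5 than at stage 9. Of all 171 members, 54 were above 0 at stage 7, 49 at stage 8, 82 at stage 8.5, 84 at stage 9 and 101 at stage 10. Among all 83 gained rows at 200 TPM or more at stage 33 with an onset at stage 14 or later, 7 were above 0 at stage 8, 54 at stage 8.5, 44 at stage 9 and 53 at stage 10, with sums of 2.84, 56.5, 30.5 and 36.8 TPM. The level of 200 TPM was chosen after the values were seen. Stage 8 is also the last library with a suffix of unknown meaning in its column name. The deposited columns of stages 8.5, 9 and 10 also summed to over 1000000, while that of stage 8 did not. Depth, on which a count above 0 depends, is unknown. Stage, handling, depth and kind of column therefore cannot be told apart here.

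Between stages 14 and 16 part of the members were lower at the later stage. The 45 rows with an onset at stage 16 are higher there by the rule. Of the 126 with an onset at stage 18, which the rule holds under 10 TPM at both stages, 75 were higher and 48 lower in TPM at stage 16 than at stage 14. Of the 15 most abundant, all with an onset at stage 18, 9 were lower, with medians of 5.26 TPM at stage 14, 3.33 TPM at stage 16 and 24.4 TPM at stage 18. On the spike-in scale 74 of the 126 rows were lower at stage 16, and the Xenopus total per spike-in total was 1.91 at stage 14, 1.5 at stage 16 and 1.89 at stage 18. Each of these stages is 1 library.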
